A study of Danio rerio with 12 samples.

Results

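The respiratory chain of zebrafish larvae was examined through genes in the count tables whose names mark them as part of complexes I to V of oxidative phosphorylation. Members were found by the start of the gene name: nduf for complex I, sdha to sdhd for complex II, uqcr for complex III, cox4 to cox8 for complex IV, atp5 for complex V, and mt-nd, mt-co, mt-cyb and mt-atp for the mitochondrial genome. The rule found 121 of 32057 genes, 108 of them nuclear and 13 mitochondrially encoded. Chain genes with other names or with no symbol were not taken in. By name, 57 belonged to complex I, 9 to complex II, 9 to complex III, 24 to complex IV and 22 to complex V. The nuclear members comprised 94 subunits, 12 assembly factors of complexes I and II, and 2 inhibitors of complex V. In all, 120 members passed the filter on low counts.

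Whole larvae of Danio rerio (AB strain) were compared in 4 groups of 3 biological replicates, one library each. The groups were exposed and control larvae at an age of 10 days post fertilization (dpf), and exposed and control larvae at 7 dpf. The start and length of exposure are not given here, so age and length of exposure cannot be told apart in exposed larvae. Exposed larvae were kept in tritiated water (HTO), water that carries the radioactive hydrogen isotope tritium, at 0.4 mGy/h, in an incubator within a glove box. Control larvae received no tritium and were kept in an incubator outside that box, and effects of the tritium and of the incubator cannot be told apart. The series title gives the mode of action of tritium in young zebrafish as the subject.

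The respiratory chain lies in the inner mitochondrial membrane. Complex I takes electrons from NADH and complex II from succinate, complex III passes them to cytochrome c, and complex IV passes them on to oxygen. Complexes I, III and IV pump protons, and complex V (ATP synthase) uses the returning protons to make ATP. Complex II is encoded wholly in the nucleus, while the other complexes combine nuclear subunits with core subunits from the mitochondrial genome. Muscle, heart, brain and retina are rich in these complexes.

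The libraries held 19379018 to 67338921 reads on genes. Nuclear members took 0.777 to 1.06% of these reads and mitochondrially encoded members 2.58 to 3.48%. One library, exposed replicate 1 at 10 dpf, stood apart: its counts differed from those of its 2 fellow replicates with a chi-square per degree of freedom of 78.9 and 98.5, against 7.17 to 28.8 for every other pair of replicates. Its summed counts per 1000000 reads (CPM, with library sizes scaled by TMM) of 20 liver markers were 1791, against 6291 and 8560 in the other 2 exposed libraries at 10 dpf and 8011 to 8178 in controls. The summed CPM of 16 markers of exocrine pancreas were 3339 in that library, against 25640 and 31466 in the other exposed libraries and 23706 to 30455 in controls. Counts with exposure at 10 dpf of members and of other gene lists are given without it as well. Counts with age in exposed larvae are given without it for members and for most tissue markers.

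Few respiratory chain mRNAs differed at 10 dpf between larvae exposed to tritiated water and controls. With edgeR's quasi-likelihood test and Benjamini-Hochberg adjustment over all 23075 genes tested, 1 of 120 members was higher in exposed larvae and 0 were lower, while 11.8% of all genes were called (4.77% higher and 7.02% lower). Before adjustment, 9 of 120 members had a p under 0.05, against 6579 of all 23075 genes. The median log2 fold change of the members was -0.0014, with 60 above 0 and 60 below 0, and that of all genes was -0.004. For 109 of 120 members the 95% interval of the fold change lay within 1.5-fold in either direction, and for 93 it lay within 1.3-fold. Libraries of the treatments were wholly apart for 12 members, 8 higher and 4 lower, against 33.8% of all genes (15.4% higher and 18.4% lower).

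The called member was a gene for COX5B, a nuclear subunit of complex IV (cytochrome c oxidase) on the matrix side of the enzyme. The symbol stands for 3 zebrafish genes, and the one called was ENSDARG00000113254. It had 7.67, 7.25 and 6.92 CPM in exposed larvae at 10 dpf, against 4.78, 5.45 and 5.42 CPM in control larvae at 10 dpf. All exposed libraries lay above all controls, and the log2 fold change was 0.48 (SE 0.108, adjusted p = 0.0133, edgeR). At 7 dpf the gene had 8.56, 7.51 and 9.35 CPM in exposed larvae and 7.88, 8.28 and 7.64 CPM in controls, which overlapped (log2 fold change 0.09, adjusted p = 0.84). The difference between these exposure effects did not pass the test for this or any other member. The call at 10 dpf was lost without control replicate 1 at 10 dpf (log2 fold change 0.44, adjusted p = 0.0563).

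The other COX5B genes were not called at 10 dpf. ENSDARG00000015978, the one with most reads, averaged 153 ± 12.2 CPM in exposed larvae and 146 ± 11.7 CPM in control larvae at 10 dpf (SD, n = 3 each), a log2 fold change of 0.06 (adjusted p = 0.665). ENSDARG00000068738 averaged 10.5 ± 1.24 CPM in exposed larvae and 9.23 ± 0.858 CPM in controls (log2 fold change 0.19, adjusted p = 0.279). Reads that match several near-identical genes may be left out of the counts, so the level of each COX5B gene is uncertain.

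**Figure D1:**
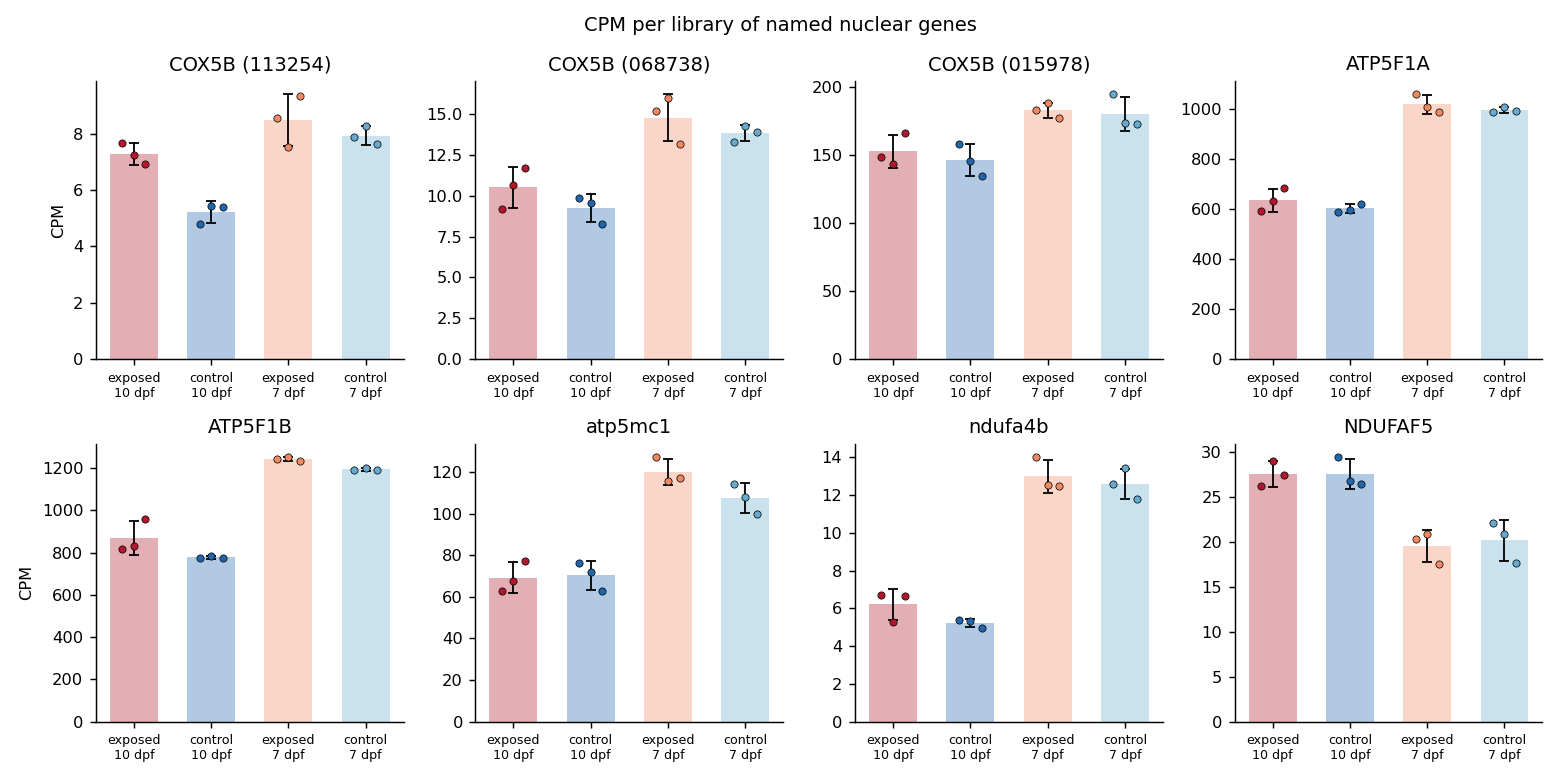
CPM per library of 8 named nuclear genes in exposed and control larvae at 10 and 7 dpf. Points are libraries, bars are means and error bars are SD (n = 3), each axis starts at 0 and the COX5B genes carry the end of their Ensembl ID. The COX5B gene in the first panel is higher in exposed than in control larvae at 10 dpf, and ATP5F1A, ATP5F1B, atp5mc1 and ndufa4b are lower at 10 than at 7 dpf in both treatments, while NDUFAF5 is higher.

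The members next in order of p at 10 dpf, chosen after their values were seen, did not reach the threshold. The complex IV gene cox7a1, known in mammals as the heart and skeletal muscle form of its subunit, had 14.3, 14.6 and 15.7 CPM in exposed larvae and 13.1, 12.6 and 8.83 CPM in controls (log2 fold change 0.37, adjusted p = 0.0776). The gene atp5if1b, whose product blocks ATP hydrolysis by complex V, had 39.9, 42.8 and 43.8 CPM in exposed larvae and 50.0, 50.1 and 45.7 CPM in controls (log2 fold change -0.20, adjusted p = 0.0786). Neither pair of groups overlapped. Without exposed replicate 1, the library that stood apart, 2 members were called at 10 dpf, the COX5B gene and cox4i1l. By its name cox4i1l is a gene like COX4I1. It had 1.58, 2.88 and 3.70 CPM in exposed larvae and 2.02, 2.11 and 1.51 CPM in controls. Its log2 fold change was 0.54 with all libraries (adjusted p = 0.148) and 0.79 without that one (adjusted p = 0.0126).

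At 7 dpf, 0 of 120 members were called by edgeR, while 0.516% of all genes were (0.178% higher and 0.338% lower). The lowest adjusted p of a member was 0.269, and 5 members had an unadjusted p under 0.05, against 2744 of all 23075 genes. DESeq2 also called 0 members. The nuclear members had a median log2 fold change of 0.08, with 85 of 107 above 0, against -0.01 for all genes. The 13 mitochondrially encoded members had a median of -0.02. Markers of some tissues stood higher in exposed larvae at 7 dpf as well. Log2 fold changes were above 0 for 23 of 27 photoreceptor and 21 of 24 fast muscle markers. So were those of 20 of 22 proliferation and 14 of 16 exocrine pancreas markers, and of 10936 of all 23075 genes. The counts above 0 were 15 of 24 ionocyte, 12 of 24 slow and cardiac muscle and 10 of 20 liver markers. They were 10 of 21 intestine, 8 of 22 neuron and 2 of 18 macrophage and neutrophil markers. The summed CPM of photoreceptor markers were 4124 to 4357 in exposed larvae and 3288 to 3921 in controls, and those of ionocyte markers 3340 to 3675 in exposed larvae and 2865 to 3202 in controls. Fast muscle, proliferation and exocrine pancreas sums overlapped, and of the tissue markers 1 ionocyte marker was called higher and 1 fast muscle marker lower. Their part in the values of the nuclear members was not tested. Exposed libraries lay wholly above controls for 22 members and wholly below for 2, against 8.15% and 8.6% of all genes. These differences were small: for 114 of 120 members the 95% interval lay within 1.5-fold, and for 96 within 1.3-fold. The number of all genes called at 7 dpf was 119, and 831 without control replicate 3 at 7 dpf, yet 0 members were called in that case too.

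The difference between the exposure effects at 10 and at 7 dpf passed the test for 0 of 120 members (edgeR, lowest adjusted p 0.26) and for 0.269% of all genes. DESeq2 also called 0 members, and 3 members had an unadjusted p under 0.05 with edgeR, against 2606 of all 23075 genes. The 95% interval of the difference lay within 1.5-fold for 101 members and within 1.3-fold for 55.

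Summed over the members, the nuclear genes reached 7640, 8244 and 9144 CPM in exposed larvae and 8563, 8321 and 7515 CPM in control larvae at 10 dpf. At 7 dpf they reached 10619, 11023 and 10425 CPM in exposed larvae and 10500, 10318 and 9897 CPM in controls. The treatments overlapped at both ages, whereas every library at 10 dpf lay below every library at 7 dpf. The 13 mitochondrially encoded genes summed to 27155, 28682 and 27229 CPM in exposed larvae and 30492, 28940 and 28377 CPM in controls at 10 dpf. At 7 dpf they summed to 31781, 34438 and 29768 CPM in exposed larvae and 31668, 34948 and 32334 CPM in controls. Within each treatment the ages did not overlap, and the treatments overlapped at each age.

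The mean nuclear sum at 10 dpf was 0.781 times that at 7 dpf in exposed larvae and 0.794 times in controls. The mitochondrial sum was 0.865 times in exposed larvae and 0.887 times in controls. The mitochondrial sum divided by the nuclear sum averaged 3.34 ± 0.313 in exposed larvae at 10 dpf, 3.60 ± 0.154 in controls at 10 dpf, 2.99 ± 0.134 in exposed larvae at 7 dpf and 3.22 ± 0.189 in controls at 7 dpf (SD, n = 3 each). Such sums are led by a few abundant transcripts, and they differed between complexes. At 7 dpf the nuclear sums of complexes I, II and V did not overlap between treatments, with exposed larvae 1.06, 1.05 and 1.04 times the controls. At 10 dpf the sums of all complexes overlapped between treatments.

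**Figure D2:**
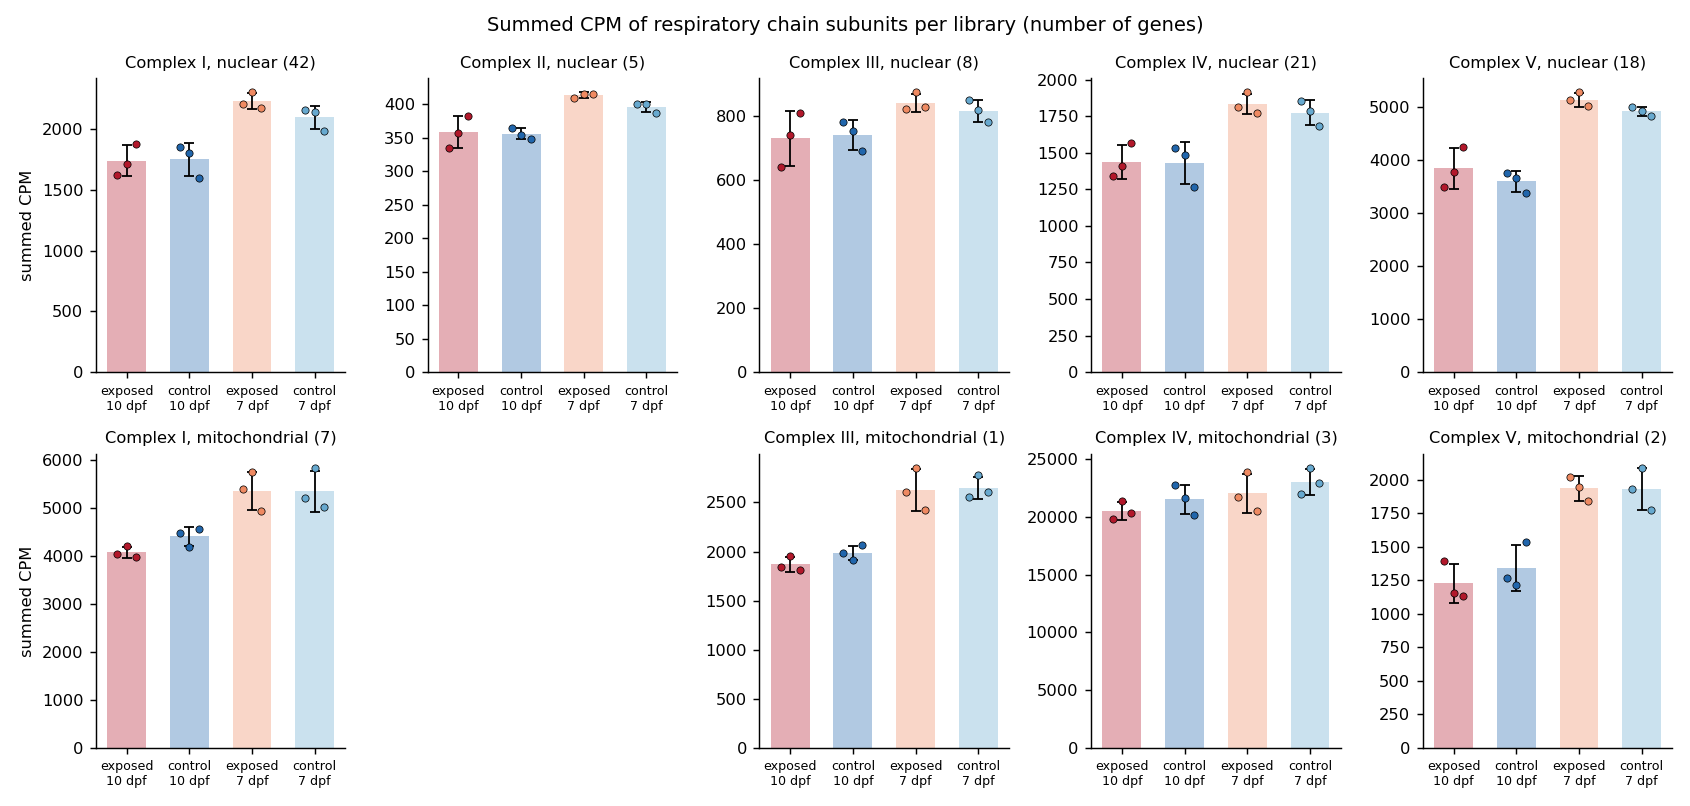
Summed CPM of the subunits of each complex per library, nuclear in the upper row and mitochondrially encoded in the lower row, with the number of genes in brackets. Points are libraries, bars are means and error bars are SD (n = 3), and each axis starts at 0. Libraries at 10 dpf lie below those at 7 dpf of the same treatment in every panel except those of mitochondrial complex IV and, in controls, of nuclear complex III, where they overlap.

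Most respiratory chain mRNAs fell with age in both treatments. Between 7 and 10 dpf, 71 of 120 members fell and 1 rose in exposed larvae, against 12.4% of all genes falling and 10.8% rising (23.2% called in all). Without exposed replicate 1 at 10 dpf, 62 members fell and 3 rose in exposed larvae, against 11.8% of all genes falling and 9.29% rising. In control larvae 61 members fell and 1 rose, against 15% of all genes falling and 14.3% rising (29.3% called in all). The median log2 fold change of the members was -0.33 in exposed and -0.30 in control larvae, and that of all genes was 0.01 in exposed and -0.01 in control larvae. The libraries of the ages did not overlap for 87 members in exposed larvae, 84 of them lower at 10 dpf, against 39.6% of all genes (20.2% lower). They did not overlap for 81 members in controls, 77 of them lower, against 46.1% of all genes (23.6% lower).

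Many of the same members fell in both treatments. The fold changes come from separate libraries, but the calls share the scaling and the estimate of spread over all libraries. The median log2 fold change of the nuclear members was -0.32 in exposed and -0.30 in control larvae. That of the mitochondrially encoded members was -0.42 in exposed and -0.28 in control larvae. Of the 71 members that fell in exposed and the 61 that fell in control larvae, 57 were shared, which is 80.3% of the exposed list and 93.4% of the control list. For all genes, 2000 that fell were shared, 70.1% of the exposed list and 57.6% of the control list. The shares of members and of all genes cannot be compared directly, since lists share more where more genes fell. In exposed larvae 71 of 120 members fell, against 12.4% of all genes, and in controls 61 of 120, against 15%. Across the 120 members, the Pearson correlation of the log2 change with age in exposed and in control larvae was 0.79 (0.65 across all genes), as a description, since genes are not independent replicates. As given above, the difference between the age changes of the treatments passed the test for 0 members. In whole larvae, fewer cells of a type and less RNA per cell cannot be told apart.

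**Figure D3:**
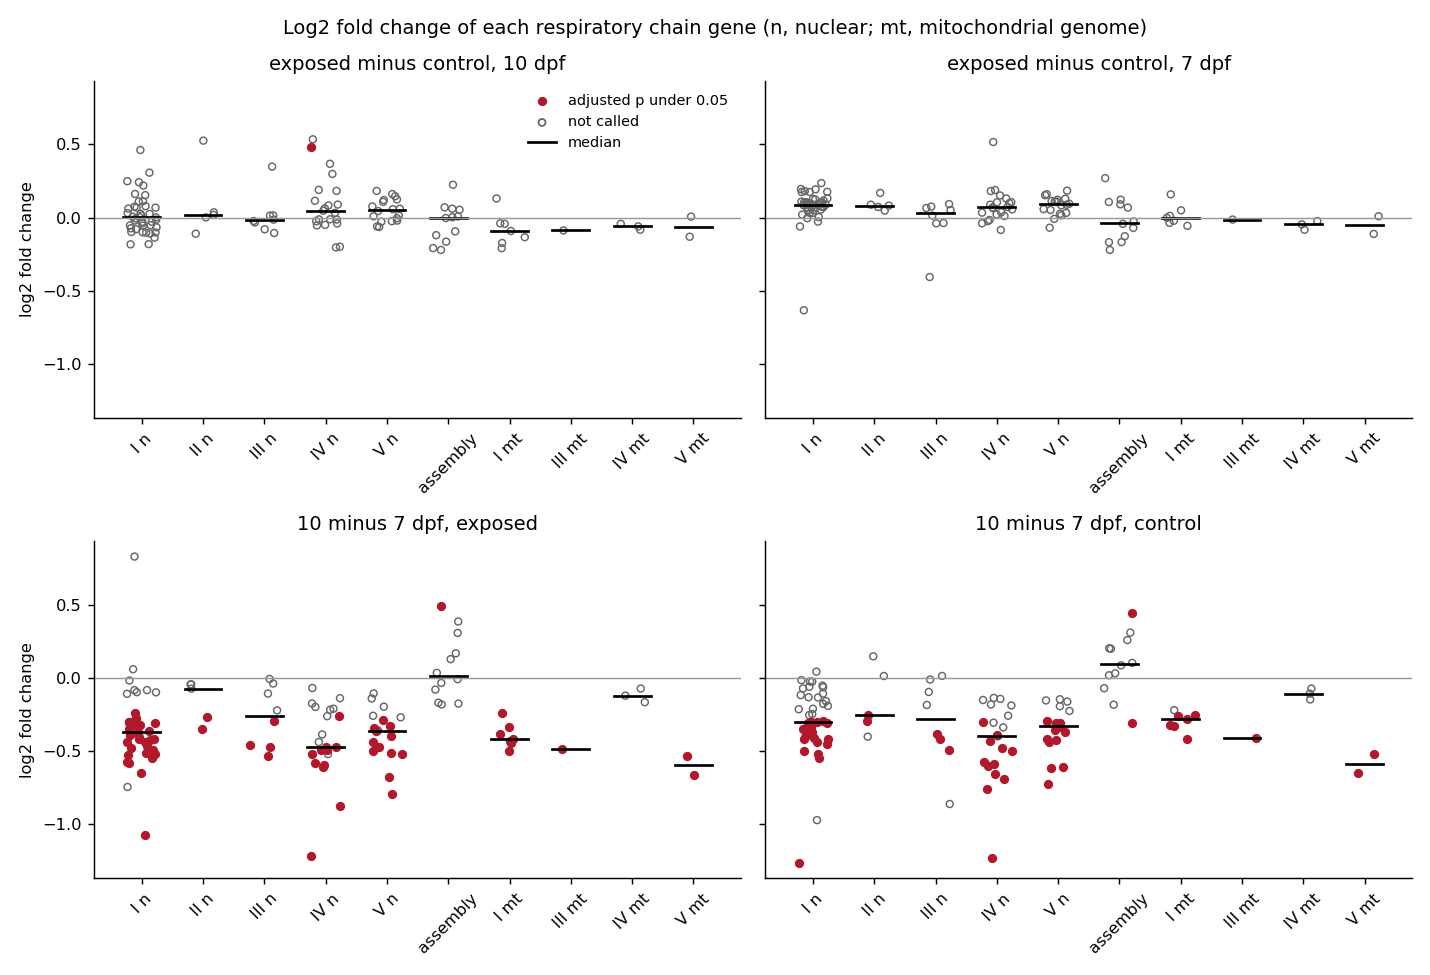
Log2 fold change of the 120 tested members except the 2 inhibitors of complex V, grouped by complex and genome, with assembly factors apart. Upper panels show exposed minus control larvae at 10 and at 7 dpf, and lower panels 10 minus 7 dpf in exposed and in control larvae. Filled points passed the adjusted p of 0.05, open points did not, and lines are medians. In the upper panels 1 point is filled, a COX5B gene at 10 dpf. In the lower panels most nuclear and mitochondrial subunits lie below 0, while the assembly factors scatter around 0.

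Complex I is the largest complex of the chain. Of 41 tested nuclear subunits, 32 fell with age in exposed and 21 in control larvae, with median log2 fold changes of -0.37 in exposed and -0.30 in control larvae. NDUFV1, which carries the NADH binding site and had the most reads of the nuclear members of complex I, had 150, 166 and 177 CPM in exposed larvae at 10 dpf and 214, 218 and 226 CPM at 7 dpf. Its controls had 161, 163 and 161 CPM at 10 dpf and 217, 211 and 193 CPM at 7 dpf. The ages did not overlap in either treatment, and the log2 fold change was -0.42 in exposed (SE 0.0749, adjusted p = 0.00144) and -0.36 in control larvae (SE 0.0749, adjusted p = 0.00305).

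The gene ndufa4b had the smallest p of all members in both treatments. It is named for complex I, although the human protein of this name is now known as a part of complex IV. It had 6.72, 5.27 and 6.65 CPM in exposed larvae at 10 dpf and 14.0, 12.5 and 12.5 CPM at 7 dpf. In controls it had 5.37, 5.35 and 4.96 CPM at 10 dpf and 12.6, 13.4 and 11.8 CPM at 7 dpf. Each library at 10 dpf lay far below each at 7 dpf, with log2 fold changes of -1.07 in exposed (adjusted p = 1.97e-05) and -1.27 in control larvae (adjusted p = 3.82e-06). ndufab1b encodes the mitochondrial acyl carrier protein, which is also a subunit of complex I. It averaged 27.8 ± 2.71 CPM in exposed larvae at 10 dpf and 38.4 ± 0.582 CPM at 7 dpf, and 25.7 ± 1.18 CPM in controls at 10 dpf and 37.0 ± 1.70 CPM at 7 dpf (SD, n = 3 each). Its log2 fold change was -0.47 in exposed (adjusted p = 0.000947) and -0.52 in control larvae (adjusted p = 0.000316).

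NDUFS1, a core subunit of complex I (ENSDARG00000028546), had 0 reads in all 12 libraries and was not tested. Whether its reads were counted elsewhere or left out was not tested.

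In complex II, 2 of 5 subunits fell in each treatment: SDHA and the SDHD gene ENSDARG00000030139. SDHB, SDHC and the other SDHD gene, ENSDARG00000055712, did not pass the test. SDHA, the flavoprotein that oxidizes succinate, had 165, 180 and 192 CPM in exposed larvae at 10 dpf and 218, 215 and 214 CPM at 7 dpf. Control libraries had 172, 173 and 178 CPM at 10 dpf and 205, 214 and 207 CPM at 7 dpf. The ages did not overlap, and the log2 fold change was -0.27 in exposed (adjusted p = 0.0117) and -0.26 in control larvae (adjusted p = 0.0117). The call was lost in exposed larvae without exposed replicate 1 at 7 dpf (log2 fold change -0.25) and in controls without control replicate 1 at 10 dpf (-0.24). SDHB, the iron-sulfur subunit, averaged 91.0 CPM in exposed larvae at 10 dpf and 95.9 CPM at 7 dpf, with log2 fold changes of -0.07 in exposed and 0.01 in control larvae.

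Of the 8 nuclear subunits of complex III, 4 fell in exposed larvae (UQCR10, UQCRC1, UQCRC2 and UQCRQ), and 3 of these, all but UQCRC2, fell in controls. UQCRC1 encodes a core protein of the complex, with log2 fold changes of -0.46 in exposed and -0.42 in control larvae. The nuclear complex III gene with most reads, uqcrc2a, encodes the other core protein. It had 193, 248 and 276 CPM in exposed larvae at 10 dpf and 232, 264 and 241 CPM at 7 dpf, and the groups overlapped (log2 fold change -0.04, adjusted p = 0.831). UQCRH, the hinge protein, likewise had overlapping groups and log2 fold changes of -0.01 in exposed and -0.01 in control larvae. UQCRB had 6 to 34 reads per library, and its values are not given for that reason.

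Complex IV had the lowest nuclear median, -0.47 in exposed and -0.40 in control larvae, and 11 of its 21 nuclear subunits fell in exposed and 12 in control larvae. COX5A, on the matrix side of the enzyme, had 42.1, 49.4 and 57.2 CPM in exposed larvae at 10 dpf and 95.7, 90.7 and 86.5 CPM at 7 dpf. The controls had 56.5, 51.9 and 41.7 CPM at 10 dpf and 93.9, 83.3 and 76.7 CPM at 7 dpf. The ages were well apart, with log2 fold changes of -0.88 in exposed (adjusted p = 0.000287) and -0.76 in control larvae (adjusted p = 0.000643). The COX7A2 gene ENSDARG00000053217 averaged 47.8 ± 1.88 CPM in exposed larvae at 10 dpf and 73.0 ± 3.65 CPM at 7 dpf, and 46.7 ± 4.51 CPM in controls at 10 dpf and 70.2 ± 3.88 CPM at 7 dpf (SD, n = 3 each). Its log2 fold change was -0.61 in exposed (adjusted p = 0.000151) and -0.59 in control larvae (adjusted p = 0.000162).

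COX4I1, a regulatory subunit and the nuclear complex IV gene with most reads, was not called although the ages did not overlap. It had 215, 224 and 243 CPM in exposed larvae at 10 dpf and 250, 277 and 256 CPM at 7 dpf (log2 fold change -0.20, adjusted p = 0.0966). In controls it had 244, 242 and 208 CPM at 10 dpf and 263, 256 and 244 CPM at 7 dpf, with the highest at 10 dpf close to the lowest at 7 dpf (log2 fold change -0.14, adjusted p = 0.228).

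Complex V is led by its catalytic head, whose alpha and beta subunits are ATP5F1A and ATP5F1B. Of 18 nuclear subunits, 12 fell in exposed and 13 in control larvae, with medians of -0.36 in exposed and -0.33 in control larvae. ATP5F1A had 591, 632 and 684 CPM in exposed larvae at 10 dpf and 1060, 1010 and 988 CPM at 7 dpf, and 590, 598 and 622 CPM in controls at 10 dpf and 988, 1010 and 994 CPM at 7 dpf. Its log2 fold change was -0.68 in exposed (SE 0.0723, adjusted p = 2.6e-05) and -0.73 in control larvae (SE 0.0724, adjusted p = 1.23e-05). ATP5F1B, the catalytic subunit, had 816, 832 and 959 CPM in exposed larvae at 10 dpf and 1240, 1252 and 1234 CPM at 7 dpf. In controls it had 775, 784 and 773 CPM at 10 dpf and 1189, 1200 and 1192 CPM at 7 dpf. Replicates of both genes were close and the ages far apart, and the log2 fold change of ATP5F1B was -0.52 in exposed (adjusted p = 0.000249) and -0.62 in control larvae (adjusted p = 4.64e-05).

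The c ring of complex V, which turns as protons pass, was measured through 3 genes, whose counterparts in mammals encode the same mature protein. atp5mc1 had 62.6, 67.5 and 77.2 CPM in exposed larvae at 10 dpf and 127, 116 and 117 CPM at 7 dpf, with log2 fold changes of -0.80 in exposed (adjusted p = 6.26e-05) and -0.61 in control larvae (adjusted p = 0.000379). ATP5MC3 fell by less, with a log2 fold change of -0.33 in both treatments. atp5mc3b, which averaged 684 CPM in exposed larvae at 10 dpf and 736 CPM at 7 dpf, was not called, with log2 fold changes of -0.11 in exposed and -0.23 in control larvae. The inhibitors atp5if1a and atp5if1b were not called with age, with log2 fold changes of -0.17 and 0.10 in exposed and 0.03 and 0.16 in control larvae.

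The mitochondrial genome gave a divided picture. Of its 13 genes, 10 fell with age in exposed larvae and 9 in controls, while the genes of the 3 complex IV subunits, MT-CO1, MT-CO2 and MT-CO3, were not called in either treatment. MT-CO1, the catalytic core of the oxidase, had 11165, 12205 and 11472 CPM in exposed larvae at 10 dpf and 12264, 13078 and 11331 CPM at 7 dpf. In controls it had 13014, 12139 and 11769 CPM at 10 dpf and 12341, 13666 and 12854 CPM at 7 dpf. The ages overlapped, and the log2 fold change was -0.07 in exposed (95% interval -0.25 to 0.10) and -0.07 in control larvae (-0.25 to 0.10). MT-CO2 had log2 fold changes of -0.12 in exposed and -0.11 in control larvae, and MT-CO3 of -0.17 in exposed and -0.15 in control larvae, none past the test.

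The mitochondrial genes of complex V fell most. MT-ATP6, a part of the proton channel, had 1322, 1100 and 1073 CPM in exposed larvae at 10 dpf and 1924, 1857 and 1754 CPM at 7 dpf. In controls it had 1208, 1159 and 1461 CPM at 10 dpf and 1827, 1985 and 1690 CPM at 7 dpf. Each library at 10 dpf lay below each at 7 dpf, with log2 fold changes of -0.66 in exposed (adjusted p = 0.000695) and -0.52 in control larvae (adjusted p = 0.00267). mt-atp8 fell by 0.53 in exposed (adjusted p = 0.00901) and by 0.65 in control larvae (adjusted p = 0.00205) on the log2 scale. MT-CYB, the cytochrome b of complex III, averaged 1869 ± 78.6 CPM in exposed larvae at 10 dpf and 2624 ± 216 CPM at 7 dpf, and 1987 ± 73.2 CPM in controls at 10 dpf and 2649 ± 114 CPM at 7 dpf (SD, n = 3 each). Its log2 fold change was -0.49 in exposed (adjusted p = 0.000634) and -0.41 in control larvae (adjusted p = 0.00155).

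The 7 mitochondrial genes of complex I, which encode its membrane arm, all fell in exposed larvae and 6 of them in controls. Their log2 fold changes in exposed larvae were between -0.50 for MT-ND5 (adjusted p = 0.00326) and -0.24 for MT-ND3. MT-ND1 fell by 0.42 in exposed (adjusted p = 0.00199) and by 0.33 in control larvae (adjusted p = 0.0073), and MT-ND2 by 0.38 in exposed and 0.28 in control larvae. MT-ND4 fell by 0.33 in exposed larvae (adjusted p = 0.00982), and its log2 fold change in controls was -0.22 (adjusted p = 0.0567). mt-nd4l fell by 0.43 in exposed and by 0.26 in control larvae, and MT-ND6 by 0.44 in exposed and by 0.42 in control larvae. Some of these calls rested on single libraries. The number of mitochondrial genes called in controls was 9, and 5 without control replicate 2 at 10 dpf or without control replicate 2 at 7 dpf. Over the 12 fits that left out a library, mt-nd4l lost its call in controls in 5, and MT-ND2, MT-ND3 and MT-ND5 in 3 each. In exposed larvae MT-ND3 (adjusted p = 0.0341) lost its call in 6 of these fits and MT-ND4 in 1. With counts taken without regard to strand, 7 mitochondrial genes were called in controls, and MT-ND2 (adjusted p = 0.0539) and MT-ND6 (adjusted p = 0.0553) were not. MT-ND6 had 8639 reads on its own strand and 147812 on the other strand over all libraries. Whether stray reads of the other strand had a part in its change with age was not tested.

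**Figure D4:**
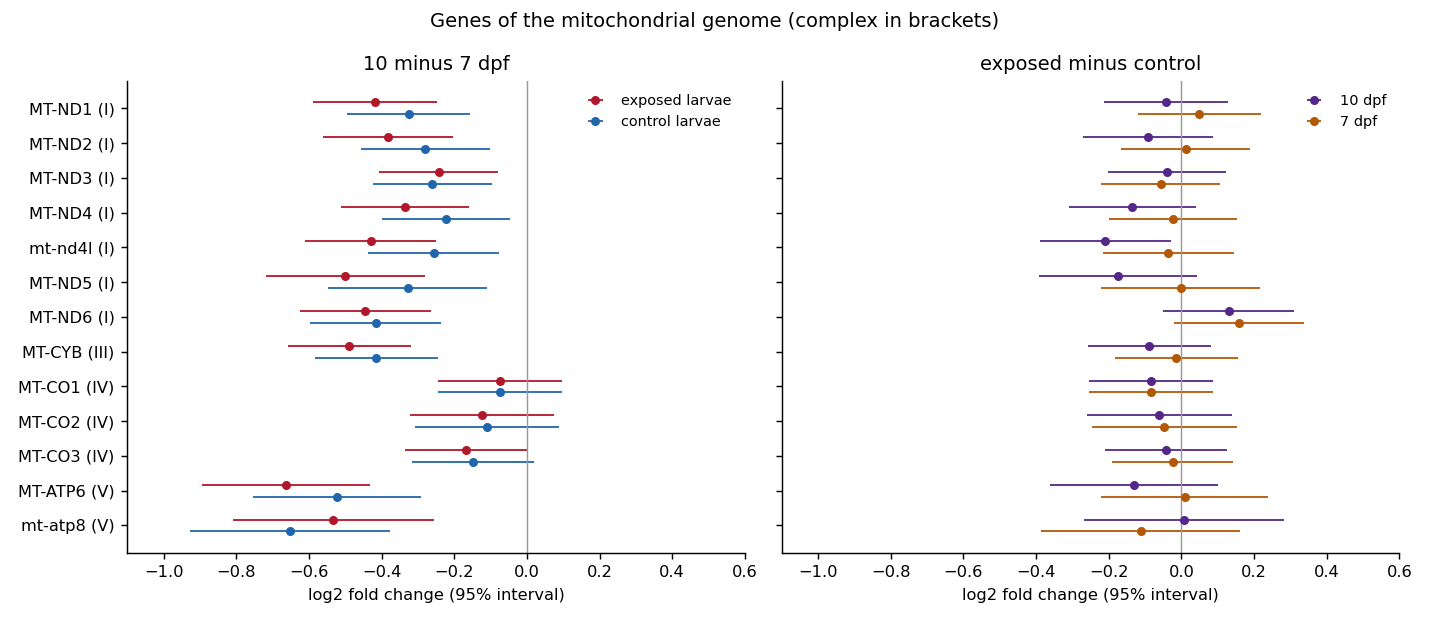
Log2 fold change with 95% interval of the 13 mitochondrially encoded members, for 10 minus 7 dpf in exposed and in control larvae (left) and for exposed minus control larvae at 10 and at 7 dpf (right). The genes of complex IV lie nearest 0 in the left panel, between -0.17 and -0.07, and those of complex V lie furthest below 0. In the right panel all 13 genes lie between -0.21 and 0.16.

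Exposure called 0 of the 13 mitochondrial genes at either age (edgeR and DESeq2). Of all 23075 genes, 6579 at 10 dpf and 2744 at 7 dpf had an unadjusted p under 0.05 with edgeR. Of the mitochondrial genes 1 did at 10 dpf and 0 did at 7 dpf. That gene was mt-nd4l, with 123, 123 and 112 CPM in exposed larvae and 137, 131 and 146 CPM in control larvae at 10 dpf. Its groups did not overlap, and the log2 fold change was -0.21 (95% interval -0.39 to -0.03, adjusted p = 0.12). At 10 dpf 11 of the 13 had log2 fold changes below 0, with a median of -0.08. All 13 had intervals within 1.5-fold at both ages. MT-ND6, the only one of these genes encoded on the light strand, had log2 fold changes of 0.13 at 10 dpf and 0.16 at 7 dpf. Counted without regard to strand, its value at 10 dpf was -0.16, with 8639 reads on its own strand and 147812 on the other strand over all libraries. mt-atp8 overlaps MT-ATP6 and mt-nd4l overlaps MT-ND4, so reads in the overlaps may be left out of the counts of both genes.

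Assembly factors help to build the complexes and do not remain in them, and 12 members were such factors, of complexes I and II. With age, 8.33% of the 12 were called in exposed and 16.7% in control larvae, against 23.2% and 29.3% of all genes. Of all genes, 10.8% rose and 12.4% fell in exposed and 14.3% rose and 15% fell in control larvae. With 12 genes the shares are uncertain. FOXRED1, a complex I factor not found by the rule, is given below. Of the 12, NDUFAF5 rose with age in both treatments, 0 fell in exposed larvae and 1, SDHAF3, fell in controls (log2 fold change -0.31, adjusted p = 0.0428). By comparison, 61 of 93 nuclear subunits fell in exposed and 51 of 93 in control larvae. NDUFAF5, which in humans hydroxylates a core subunit of complex I, had 26.1, 29.0 and 27.5 CPM in exposed larvae at 10 dpf and 20.3, 20.8 and 17.5 CPM at 7 dpf. Its levels in controls were 29.4, 26.7 and 26.4 CPM at 10 dpf and 22.1, 20.9 and 17.6 CPM at 7 dpf. The ages did not overlap, and the log2 fold change was 0.49 in exposed (adjusted p = 0.00282) and 0.45 in control larvae (adjusted p = 0.00388). The median of the 12 assembly factors was 0.01 in exposed and 0.09 in control larvae.

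Several subunits are encoded by more than one zebrafish gene, and in some families one paralog was called and another was not. By symbol, 37 tested members were placed in 15 families, which also took in genes of related names, such as ndufa4l2b, and the inhibitors of complex V. The log2 change with age in controls was -0.76 for COX5A and -0.14 for cox5aa, and in exposed larvae -0.88 for COX5A and -0.22 for cox5aa. COX5A was called in both treatments and cox5aa, which averaged 192 CPM in exposed larvae at 10 dpf and 223 CPM at 7 dpf, in neither. The gene ndufa4b was called in both treatments, as given above, while NDUFA4, at 163 ± 12.2 CPM in exposed larvae at 10 dpf and 201 ± 10.6 CPM at 7 dpf (SD, n = 3 each), had log2 fold changes of -0.30 in exposed (adjusted p = 0.0236) and -0.18 in control larvae (adjusted p = 0.141).

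COX4I1, given above, was not called, and its paralog cox4i1l was. It averaged 2.72 ± 1.06 CPM in exposed larvae at 10 dpf and 6.42 ± 0.506 CPM at 7 dpf, and 1.88 ± 0.32 CPM in controls at 10 dpf and 4.46 ± 0.0546 CPM at 7 dpf (SD, n = 3 each). Its log2 fold change was -1.22 in exposed (adjusted p = 0.00145) and -1.24 in control larvae (adjusted p = 0.00124). The complex IV genes cox6a1 (ENSDARG00000022438) and COX6A1 (ENSDARG00000054588) both fell in both treatments, with log2 fold changes of -0.52 and -0.58 in exposed and -0.50 and -0.69 in control larvae. The difference between paralogs was not tested, and reads shared by near-identical paralogs may be left out of the counts.

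**Figure D5:**
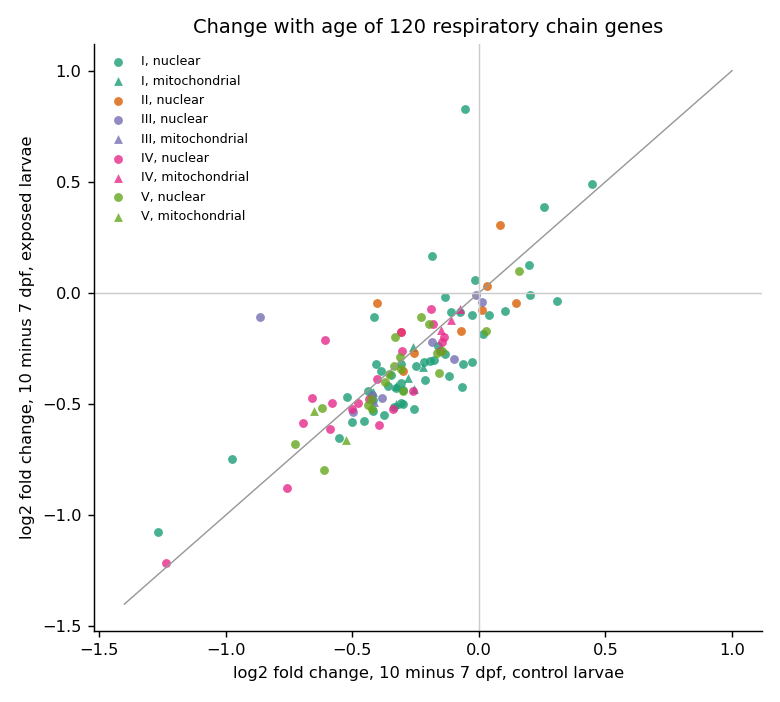
Log2 fold change of the 120 members between 10 and 7 dpf in control larvae (x axis) and in exposed larvae (y axis), coloured by complex, with circles for nuclear and triangles for mitochondrial genes. The diagonal marks equal change. Most points lie below 0 on both axes and close to the diagonal. The point near 0.83 on the y axis is ndufa4l2b, which had 0.131 to 0.232 CPM on average in each group and was not called.

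Lists of other genes of energy metabolism were read beside the members and beside all genes, of which 12.4% fell and 10.8% rose in exposed and 15% fell and 14.3% rose in control larvae. In glycolysis, 20 of 32 genes fell with age in exposed and 21 in control larvae, with 0 rising in exposed and 1 in control larvae. PKM, the pyruvate kinase, averaged 213 CPM in exposed larvae at 10 dpf and 476 CPM at 7 dpf (log2 fold change -1.16, adjusted p = 1.19e-06). In the citric acid cycle and pyruvate dehydrogenase, 13 of 33 genes fell and 2 rose in exposed larvae, and 6 fell and 3 rose in controls. Among 22 carriers and creatine kinases, 9 fell in each treatment, with 2 rising in exposed and 3 in control larvae. SLC25A4, which exchanges ADP for ATP, fell by 0.84 in exposed and by 1.08 in control larvae.

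In the machinery that makes and maintains mitochondria, the shares of genes that fell lay near or below those of all genes. For biogenesis and for dynamics and turnover, the shares that rose lay above those of all genes (10.8% in exposed and 14.3% in control larvae). Of 74 genes of the mitochondrial ribosome, 6 rose and 3 fell in exposed larvae, and 10 rose and 0 fell in controls, with medians of -0.07 in exposed and 0.02 in control larvae. Of 26 import genes, 1 rose and 1 fell in exposed larvae, and 0 rose and 1 fell in controls. Of 40 regulators of biogenesis and genes of mitochondrial DNA and RNA, 12 rose and 5 fell in exposed larvae, and 11 rose and 4 fell in controls. trmt10c, a part of mitochondrial RNase P, averaged 27.2 CPM in exposed larvae at 10 dpf and 14.9 CPM at 7 dpf (log2 fold change 0.87, adjusted p = 7.2e-05), and its log2 fold change in controls was 0.68 (adjusted p = 0.000356). Of 39 genes of mitochondrial dynamics and turnover, 10 rose and 3 fell in exposed larvae, and 11 rose and 2 fell in controls. Of 45 assembly factors listed for complexes III to V, 1 rose and 6 fell in exposed larvae, and 3 rose and 2 fell in controls. These counts include FOXRED1, which is a factor of complex I. It fell in both treatments, with log2 fold changes of -0.70 in exposed and -0.48 in control larvae. Of 21 other chain genes, such as those for cytochrome c and coenzyme Q, 1 rose in each treatment, COQ8A, and 3 fell in exposed and 2 in control larvae.

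With exposure at 10 dpf, the share of genes called was above the 11.8% of all genes in glycolysis and in the carriers and creatine kinases. Of 32 glycolysis genes, 9 were higher and 1 lower in exposed larvae (31.2% called). ENO1 (ENSDARG00000013750), an enolase, averaged 39.9 CPM in exposed larvae and 26.2 CPM in controls (log2 fold change 0.60, adjusted p = 0.000635), and PKM averaged 213 CPM in exposed larvae and 149 CPM in controls (log2 fold change 0.51, adjusted p = 0.00249). PGAM2, the muscle phosphoglycerate mutase, had a log2 fold change of 0.40 (adjusted p = 0.00561). Of 22 carriers and creatine kinases, 4 were higher and 0 lower (18.2% called). CKMT2, the creatine kinase of muscle mitochondria, averaged 11.1 CPM in exposed larvae and 4.52 CPM in controls (log2 fold change 1.28, adjusted p = 0.000454). SLC25A3 (ENSDARG00000027424), a phosphate carrier, had a log2 fold change of 0.92 (adjusted p = 0.000746), and SLC25A4 one of 0.38 (adjusted p = 0.00863). Without exposed replicate 1, 6.53% of all genes were called, with 8 glycolysis genes higher and 1 lower, 4 carriers and creatine kinases higher and 0 lower, and each of the 6 genes named here called.

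The other lists of mitochondrial genes lay below the share of all genes. In the citric acid cycle list, 1 gene was higher and 2 were lower in exposed larvae at 10 dpf (9.09% called). PDK4, a kinase that turns off pyruvate dehydrogenase, averaged 27.6 CPM in exposed larvae and 39.9 CPM in controls (log2 fold change -0.53, adjusted p = 0.00129). PDK3, another such kinase, had a log2 fold change of -0.50 (adjusted p = 0.0275), and pdha1b, a subunit of the dehydrogenase, one of 0.80 (adjusted p = 0.00781). Levels of both were low, at 3.90 CPM in exposed larvae and 5.50 CPM in controls for PDK3, and 1.67 and 0.954 CPM for pdha1b. Among regulators of biogenesis, esrrd and GABPB1 were higher, with log2 fold changes of 1.15 (adjusted p = 0.00521) and 0.50 (adjusted p = 0.0196), and 0 were lower (5% called). The level of esrrd was low, at 2.76 CPM in exposed larvae and 1.24 CPM in controls. Among dynamics and turnover genes MFN1, which fuses mitochondria, was higher (0.37), and CLPX (-0.23) and HSPA9 (-0.34), a protease subunit and a chaperone of the matrix, were lower (7.69% called). Of the assembly factors listed for complexes III to V, COA1 was lower (-0.37, adjusted p = 0.0248, 2.22% called). Without exposed replicate 1, the calls of PDK3, GABPB1, MFN1, CLPX, HSPA9 and COA1 were lost (adjusted p of 0.0519 to 0.164), and those of PDK4, pdha1b and esrrd were not. In that case 2 genes of the citric acid cycle list were higher and 1 lower (9.09%, against 6.53% of all genes), and 1 of the other chain genes was higher. The ribosome, import and other chain lists had 0 calls by edgeR at 10 dpf. They had 4, 1 and 2 genes under an unadjusted p of 0.05, against 6579 of all 23075 genes. At 7 dpf the only call among these lists was esrrgb, higher in exposed larvae (log2 fold change 0.68, adjusted p = 0.0328). Its level was low as well, at 3.90 CPM in exposed larvae and 2.45 CPM in controls at 7 dpf.

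Markers of several tissues moved with age as well, and their part in the changes of the respiratory chain was not tested. Of all genes, 12.4% fell and 10.8% rose in exposed and 15% fell and 14.3% rose in control larvae. Of 24 fast muscle markers, 17 fell and 1 rose in exposed larvae and 16 fell and 0 rose in controls. Their summed CPM ranged from 52841 to 63089 in exposed larvae at 10 dpf and from 79441 to 89456 at 7 dpf, and from 54413 to 56372 in controls at 10 dpf and from 72497 to 82221 at 7 dpf. The mean sum at 10 dpf was 0.704 times that at 7 dpf in exposed and 0.721 times in control larvae. Of 24 slow and cardiac muscle markers, 10 fell and 2 rose in exposed larvae and 9 fell and 3 rose in controls, and the mean sum at 10 dpf was 0.953 times that at 7 dpf in exposed and 1.01 times in control larvae. Of 27 photoreceptor markers tested, 18 fell and 1 rose in exposed larvae and 22 fell and 0 rose in control larvae, with sums 0.562 times as high in exposed and 0.401 times in control larvae. Proliferation markers fell in 20 of 22 genes in exposed and 19 of 22 in control larvae. Of 24 ionocyte markers, 7 fell and 0 rose in exposed larvae and 5 fell and 6 rose in controls, and of 22 neuron markers 6 fell in exposed and 15 in control larvae. Without exposed replicate 1 at 10 dpf, 16 fast muscle, 9 slow and cardiac muscle and 18 photoreceptor markers fell in exposed larvae, and 1 of each rose. In that fit 19 of 23 proliferation, 7 ionocyte and 9 neuron markers fell, and 0, 1 and 0 rose. Of all genes, 11.8% fell and 9.29% rose in it.

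For the tissues below, the counts of markers called with age in all libraries lay near or below those of all genes, though some sums moved. Of 18 macrophage and neutrophil markers tested, 3 rose in exposed and 2 in control larvae. Of 20 liver, 21 intestine and 16 exocrine pancreas markers, 2, 2 and 0 fell in exposed and 1, 3 and 0 in control larvae, and 0 rose. Mean liver sums at 10 dpf were 0.489 times those at 7 dpf in exposed and 0.708 times in control larvae, without overlap. Pancreas sums were 0.863 times in exposed larvae, with overlap, and 1.35 times in controls, without overlap. In controls the median SE was 0.56 for liver and 0.62 for pancreas markers, against 0.14 for all genes, so changes there may be missed. Control libraries of the ages were wholly apart for 9 liver markers lower and 2 higher, and 8 intestine markers lower and 2 higher. For pancreas markers they were apart for 11 higher and 1 lower, against 22.5% of all genes higher and 23.6% lower. The spread is pooled over all groups, with exposed replicate 1 at 10 dpf among them, and control counts without it are not given. Liver, intestine and pancreas counts in exposed larvae differed without exposed replicate 1 at 10 dpf: 7, 5 and 2 markers fell and 0, 4 and 5 rose. These were 35%, 23.8% and 12.5% falling and 0%, 19% and 31.2% rising. Of all genes, 11.8% fell and 9.29% rose in that fit, so most of these shares lay above those of all genes. No marker of these tissue lists was at 0 in all 12 libraries.

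With exposure at 10 dpf, counts of tissue markers were read against 4.77% of all genes higher and 7.02% lower. Of 27 photoreceptor markers 14 were higher and 0 lower, with summed CPM of 2101 to 2679 in exposed larvae and 1395 to 1468 in controls. Of the fast muscle markers 5 were higher and 1 lower, and their sums overlapped between the treatments. Of the slow and cardiac muscle markers 1 was higher, myl4, while their sums were lower, at 2037 to 2055 CPM in exposed larvae and 2128 to 2226 CPM in controls, with no overlap. Of 22 proliferation markers 9 were lower and 0 higher, and of 22 neuron markers 7 were higher and 0 lower. Of 24 ionocyte markers 1 was higher and 5 were lower. Counts near the share of all genes were those of the macrophage and neutrophil markers, with 2 of 18 lower, and of the intestine markers, with 1 of 21 higher. Of the liver and exocrine pancreas markers 0 were called by edgeR, with 0 and 0 under an unadjusted p of 0.05.

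Without exposed replicate 1, 2.62% of all genes were higher and 3.91% lower at 10 dpf. In that case 11 photoreceptor, 5 fast muscle, 4 neuron and 3 intestine markers were higher, and 7 proliferation, 4 ionocyte, 1 fast muscle and 1 macrophage and neutrophil markers were lower. Of the slow and cardiac muscle, liver and exocrine pancreas markers 0 were called by edgeR then. The part of these tissues in the values of the respiratory chain genes was not tested.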

How the data were processed

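Libraries were stranded, per the labels' protocols, and the authors deposited raw read counts per gene, made with STAR on GRCz11 per the submitters' processing notes. The release of the annotation is not given in the sources used here. The column of the strand that held most reads was used, since 2.24 to 2.55% lay on the other strand, and the summary lines of each file were left out. Symbols came from a table of gene IDs that names 28988 of 32057 genes. No sequences or gene lengths were used, so levels are not compared between genes, and a planned description of promoter motifs was not made.

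Low counts were filtered by filterByExpr of edgeR, at a minimum count of 10 and a minimum total of 15, and libraries were scaled with TMM. The test was the quasi-likelihood test of edgeR (robust fit), in which each of the 4 groups had its own mean, with 8 residual degrees of freedom, two-sided p, Benjamini-Hochberg adjustment over 23075 genes and a threshold of 0.05. CPM used TMM library sizes, and intervals are 95%. Each p-value rests on the spread between replicates, pooled over all 4 groups and moderated across genes, so groups not compared also bear on it. Alternatives were RLE scaling, scaling without mitochondrial genes, no filter, a replicate block, unstranded counts, a fit of the compared groups alone, DESeq2 and leaving out each library. Leaving out exposed replicate 1 at 10 dpf for the other lists was chosen after the data were seen. The model code was also tested on simulated counts. The software was edgeR 4.0.16 and DESeq2 1.42.0, run in R 4.3.3 with limma 3.58.1, and matplotlib 3.10.9 drew the figures.

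The members, the 19 other lists and the tests were chosen with earlier results of these data known. The 17 written lists held 445 symbols, of which 402 matched a gene by name, with a or b added, or with a final a or b dropped. The genes named were every mitochondrially encoded member, called members in order of p whose higher group averaged 5 CPM or more (up to 6 per direction with age), the nuclear member with most reads in each complex, paralogs of a member called by exposure, and up to 3 called genes per list and exposure comparison. Other genes named, such as cox5aa, NDUFA4, cox4i1l, cox6a1, ATP5MC3, SDHB, UQCRC1 and UQCRH, and genes of other lists named with age, were chosen after their values were seen.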

Additional observations from a re-analysis of the deposited data

How the results depend on the processing

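The count of members called at 10 dpf was 0 to 2 over the fits without one library, against 1 with all libraries: it was 2 without exposed replicate 1 and 0 without control replicate 1. At 7 dpf and for the difference it was 0 in every alternative and every fit without a library. With age it ranged from 53 to 77 in exposed larvae (72 with all libraries) and from 48 to 65 in controls (62). The counts of all genes in these fits ranged from 3722 to 5421 in exposed larvae (5343) and from 5044 to 7890 in controls (6770). Whichever library was left out, 49 of the 72 and 43 of the 62 member calls were kept. The share kept was not counted for all genes. RLE scaling, scaling without mitochondrial genes, no filter, unstranded counts, a fit of the compared groups alone and DESeq2 changed no count of members by over 1.5 times. With exposure, counts over all genes moved as well. The 119 calls at 7 dpf were 66 with the compared groups alone, 595 with DESeq2, 62 with the replicate block and 12 to 831 without one library. The 62 calls of the difference were 280 with DESeq2, 22 with the block and 10 to 63 without one library, and the 2721 at 10 dpf were 1153 to 3118 without one library. The deviations of same-numbered replicates had correlations of -0.20 to 0.22 over the pairs of groups, and the numbers were not taken as pairs. Between controls at 10 and at 7 dpf these were 0.043 to 0.224, above those of all differently numbered replicates (-0.24 to 0.042). With a replicate block, 68 members were called with age in exposed larvae, 62 with age in controls, 1 by exposure at 10 dpf and 0 in the other comparisons.

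Some values, none of them called, changed sign, and the cause was not tested. With the block, mt-atp8 at 10 dpf was -0.0016. With unstranded counts, MT-ND6 at 10 dpf was -0.16, against 0.13 on its own strand, which held 8639 reads where the other held 147812. MT-ND5 at 7 dpf was 0.015 with unstranded counts. MT-ND5 at 7 dpf was 0.019 with RLE scaling and with DESeq2, and 0.0059 with the compared groups alone. MT-CYB at 7 dpf was 0.0077 with RLE scaling and 0.0078 with DESeq2. Without one library, log2 fold changes at 10 dpf ranged from -0.14 to 0.0098 for MT-CO2, -0.12 to 0.15 for mt-atp8, -0.073 to 0.015 for MT-ND3, -0.013 to 0.093 for NDUFV1, -0.0006 to 0.095 for SDHA, -0.087 to 0.15 for uqcrc2a and -0.095 to 0.0299 for COX4I1. At 7 dpf they ranged from -0.0083 to 0.11 for MT-ND1, -0.043 to 0.074 for MT-ND2, -0.12 to 0.0011 for MT-CO2, -0.046 to 0.069 for MT-ATP6, -0.084 to 0.017 for MT-CO3, -0.097 to 0.026 for mt-nd4l, -0.084 to 0.038 for MT-ND4, -0.066 to 0.095 for MT-ND5, -0.072 to 0.041 for MT-CYB and -0.0032 to 0.079 for COX4I1. With age, uqcrc2a ranged from -0.14 to 0.084 in exposed larvae and from -0.015 to 0.0502 in controls. Depth limits genes of few reads, among them UQCRB, ndufa9b, ndufa4l2b and the SDHD gene ENSDARG00000055712. With 3 libraries a group, small changes may be missed.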
